A study of Mus musculus with 9 samples.

Results

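In sorted epithelial cells of the mouse mammary gland, 854 chromatin regions were graded across the cell types, most open in basal cells, intermediate in luminal cells without the oestrogen receptor (ER- luminal) and least open in luminal cells with it (ER+ luminal). They were chosen from 124860 regions of an ATAC-seq table, an assay in which a transposase inserts tags where DNA is accessible, and made up 0.684% of them. The choice used the puberty and adult libraries. On the log2(value + 1) scale, the mean of the puberty and adult values in basal cells had to exceed that in ER- luminal cells by at least 1 and under 2, the mean in ER- luminal cells had to exceed that in ER+ luminal cells by the same window, and both basal values had to be at least 30. The pregnancy libraries were held out of the choice. These values therefore describe the gradient at puberty and in adults, while the pregnancy values are independent of it.

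The study profiled basal, ER- and ER+ luminal cells from glands at puberty, in adulthood and in mid pregnancy, with 1 library for each of the 9 combinations. Cells were isolated by FACS. All mice carried the genotype ERrtTA/TetOCre/rosaYFP, so the 3 stages and the 3 cell types share these alleles. The number and age of the mice, whether animals were pooled and whether any agent was given are not stated in the sources used here. With 1 library a combination, stage cannot be told apart from the mice or the preparation that a library came from.

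In the mammary epithelium, contractile basal cells surround the ducts and alveoli, and luminal cells face the lumen. ER- luminal cells include the progenitors of the milk-secreting alveolar cells, which expand in pregnancy, and ER+ luminal cells sense the ovarian hormones and signal to their neighbours. Open chromatin marks promoters and enhancers that transcription factors can reach, and a region may be open in a share of the cells of a sort or less open in each of them, which a bulk library cannot tell apart. The table pairs regions with neither coordinates nor genes, so the sorted cell types were not checked against marker genes, no sequence is shown, and regions are named by their number.

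Depth differed by stage. The 9 libraries held 2186941 to 11328189 reads in regions, with 6679907 or more in each of the 6 puberty and adult libraries and 3418164 or fewer in each of the 3 pregnancy libraries. The pregnancy libraries also had the narrowest spread of values. The 90th percentile over all regions was 23.0 times the 10th in the pregnancy library of basal cells, 35.0 times in that of ER- luminal cells and 16.3 times in that of ER+ luminal cells, against 39.8 to 88.3 times in the other 6.

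At puberty the graded regions had a median deposited value of 59.4 for basal, 21.5 for ER- and 7.89 for ER+ luminal cells. In adults the medians were 72.6, 26.7 and 8.55 in the same order of cell types. In pregnancy they were 59.4, 25.8 and 22.04. Basal and ER- luminal medians in pregnancy lay within the range of the earlier ones, while the ER+ luminal median was over both earlier ones and close to the ER- luminal one. Single regions spread widely: the basal values ran from 30.1 to 538 at puberty, from 30.8 to 744 in adults and from 4.40 to 438 in pregnancy. The ER+ luminal values ran from 0 to 165, from 0.855 to 130 and from 0 to 153 at the 3 stages. In pregnancy the median graded region had 27 basal, 17 ER- luminal and 13 ER+ luminal reads, against 10 to 92 reads in the earlier libraries.

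**Figure D1:**
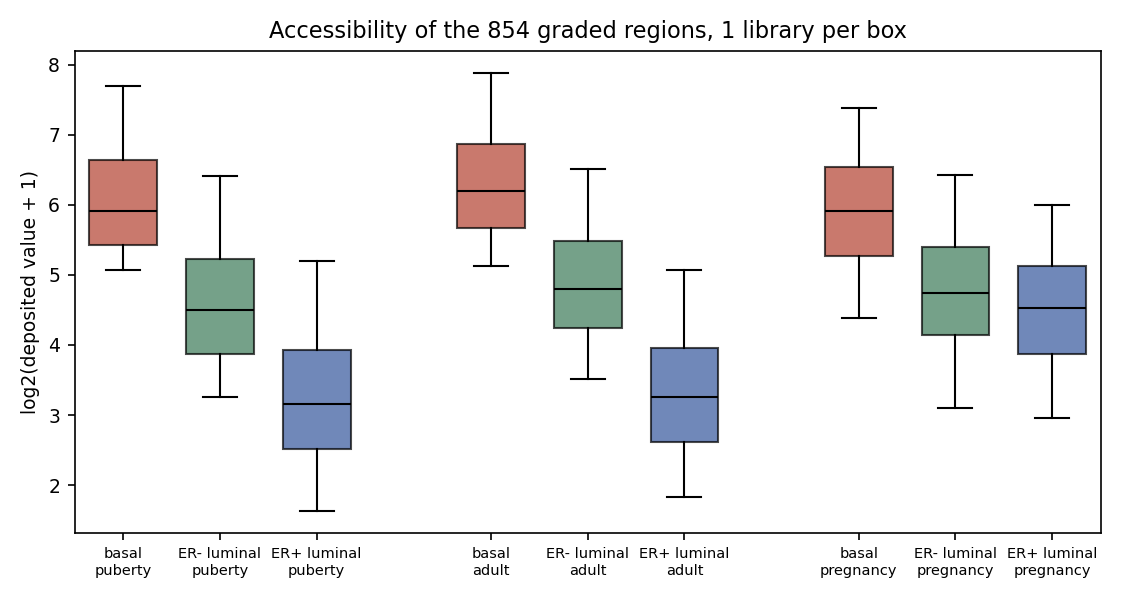
Accessibility of the 854 graded regions as log2(deposited value + 1), with 1 box per library and the cell types grouped by stage at puberty, in adults and in pregnancy. Boxes show the median and quartiles and whiskers the 5th and 95th percentiles over regions. The boxes step down from basal to ER+ luminal cells at puberty and in adults, the stages the choice used, and the ER+ luminal box in pregnancy lies near the ER- luminal one, with medians of 25.8 in ER- and 22.04 in ER+ luminal cells before the log.

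The choice held both steps to the same window, so near-equal median steps follow from it. Over the puberty and adult means, basal cells exceeded ER- luminal cells by a median log2 difference of 1.44 (quartiles 1.21 and 1.71), and ER- luminal exceeded ER+ luminal cells by 1.45 (quartiles 1.23 and 1.72). The basal to ER- luminal step was the larger of the pair in 413 of the 854 regions. Since the choice averaged 2 stages, single stages could depart from it: the order basal, ER- luminal, ER+ luminal held in 847 regions at puberty, in 853 in adults and in 846 at both. The median basal to ER- luminal step was 1.46 at puberty and 1.39 in adults, and the median ER- to ER+ luminal step was 1.35 at puberty and 1.59 in adults. For the puberty and adult libraries, limma called 489 members higher in basal than ER- luminal cells, where 9.82% of all regions were called in that direction. It called 619 members higher in ER- than ER+ luminal cells (16.1% of all regions) and all 854 higher in basal than ER+ luminal cells (23.0% of all regions). These contrasts chose the members, so nothing is read from the counts.

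Of 2532 regions whose steps both lay in the window, 1678 missed the floor on the basal values. The lower of the basal values was 30.08 in the members nearest that floor and 29.99 nearest it outside. Within 2 units of the floor, 53 regions inside had a median pregnancy step from basal to ER- luminal of 1.04, and 45 regions outside had 1.06. Their median step from ER- to ER+ luminal cells was 0.33 inside and -0.15 outside. These are medians of few regions from single libraries, and their difference was not tested. With the floor lowered to 10 (1917 regions, members included) this median was still positive, at 0.151. Nearest the lower limit of the basal to ER- luminal step, the steps were 1.003 inside and 0.998 outside. At its upper limit they were 1.998 inside and 2.0002 outside. For the ER- to ER+ luminal step they were 1.001 inside and 0.9997 outside the lower limit, and 1.996 inside and 2.003 outside the upper one.

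In pregnancy the basal to ER- luminal step was kept in most graded regions. The held-out pregnancy libraries had a median log2 difference between basal and ER- luminal cells of 1.12 over the 854 regions (quartiles 0.60 and 1.68), against -0.02 over all 124860 regions and 0.04 over the 34127 regions that met the same floor on basal values. Basal cells were higher in 794 graded regions, or 93.0%, and by at least 2-fold in 482, or 56.4%. Among all regions, 49.3% were higher in basal cells and 19.7% by at least 2-fold. These are differences between single libraries, so a test had to borrow its spread. Limma was fitted with a mean for each cell type in the puberty and adult libraries and another in pregnancy, so that the lone pregnancy library is assumed to vary like the puberty and adult libraries of a cell type. It called 14 members higher in basal cells and 0 lower at an adjusted p under 0.05 over all regions, or 1.64% of members, where 0.307% of all regions were called higher and 0.14% lower. The log2 differences of the 14 ran from 2.05 to 3.66. At an unadjusted p under 0.05 there were 327 members, or 38.3%, and 14.4% of all regions. On the reads recovered from the values, edgeR called 2 members higher (0.0489% of all regions) and DESeq2 called 8 (0.155%). Leaving out any 1 of the 6 puberty and adult libraries left 0 limma calls among members. In these fits only 0 to 5 of all regions were called higher and 0 to 6 lower.

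The ER- to ER+ luminal step was small in the same pregnancy libraries. Its median was 0.24 over the graded regions (quartiles -0.27 and 0.78), against 0.03 over all regions and 0.26 over the regions that met the floor on basal values. ER- luminal cells were higher in 537 graded regions, or 62.9%, and by at least 2-fold in 141, or 16.5%. Among all regions the shares were 50.9% and 15.2%, and among those meeting the floor 67.1% and 12.2%, so the graded regions were near the background on this step. Limma called 0 members in either direction, where 0.0489% of all regions were called higher and 0.103% lower in ER- luminal cells. At an unadjusted p under 0.05 there were 76 members, or 8.90%, fewer in share than the 12.8% of all regions. EdgeR and DESeq2 called 0 members as well, but over all regions they called only 0 and 2, so these counts say little about the members. At an unadjusted p under 0.05 they had 36 and 23 members, where 7.96% and 4.06% of all regions passed. After quantile normalization, which gives each library the same spread of values, the median step was 0.256, and with every library thinned to the read value of the shallowest it was 0.215. Quantile normalization did add calls, 14 members higher and 3 lower in ER- luminal cells, where 1445 of all 124860 regions were called higher and 2020 lower.

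**Figure D2:**
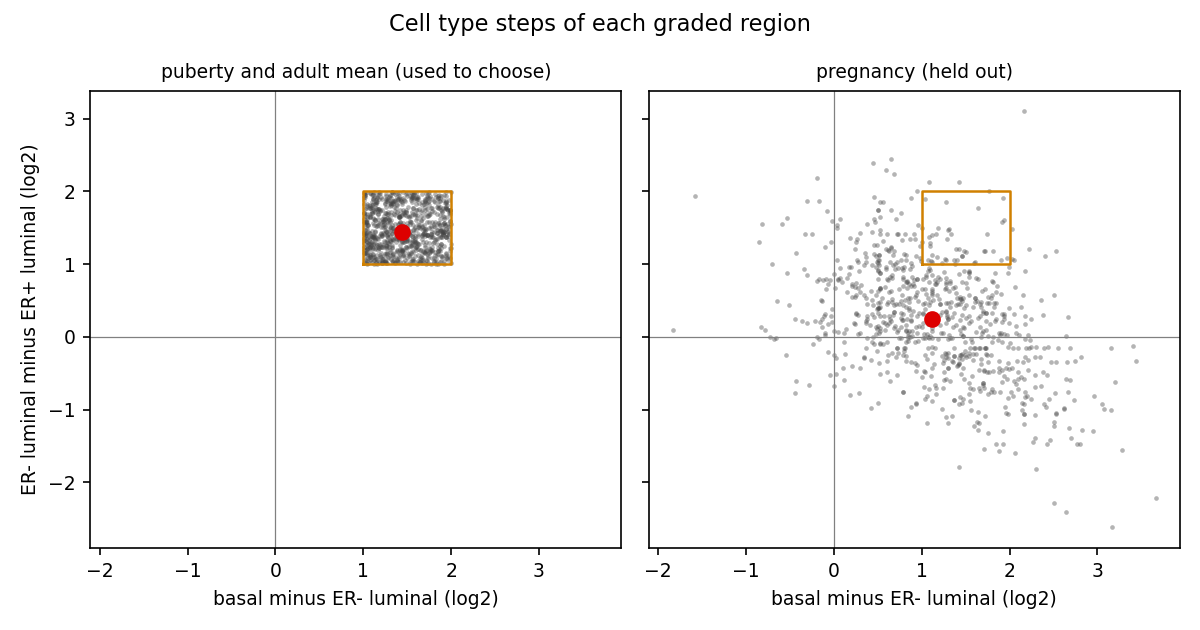
Log2 difference between basal and ER- luminal cells (horizontal) and between ER- and ER+ luminal cells (vertical) for each of the 854 graded regions, from the puberty and adult means that chose them (left) and from the held-out pregnancy libraries (right). The orange square is the window of the choice and the red point the median. In pregnancy the median lies at 1.12 and 0.24, and 41 regions fall in the square. Both axes hold the ER- luminal value.

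From end to end, basal cells exceeded ER+ luminal cells in pregnancy by a median log2 difference of 1.40 (quartiles 0.86 and 1.94), and by at least 2-fold in 585 regions, or 68.5%, against 19.6% of all regions. Limma called 95 members higher in basal cells and 0 lower, or 11.1%, where 1.26% of all regions were called higher and 0.882% lower. The 95 had log2 differences of 1.77 or more, with a median of 2.50. Of the 14 members called between basal and ER- luminal cells, 11 were among them. At an unadjusted p under 0.05 there were 414 members, or 48.5%, and 16.9% of all regions. EdgeR called 11 members (0.143% of all regions) and DESeq2 34 (0.369%). The 95 became 20, 3 or 12 when the puberty library of basal, ER- or ER+ luminal cells was left out, and 25, 7 or 17 when the adult library of these types was. At equal depth, or without a trend in the variance, 0 members passed, but so did 0 of all 124860 regions.

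The full order of the gradient was seen in 489 graded regions in pregnancy, or 57.3%, against 17.9% of all regions and 27.4% of those meeting the floor on basal values. Among the sets described below, it was seen in 59.7% of 1844 regions with a luminal step alone and 37.6% of 2160 with a basal step alone. The order was thus not particular to the graded regions. The most frequent other order was basal, ER+ luminal, ER- luminal, in 288 members or 33.7%. In the remaining 77 members a luminal library was first. Both steps were at least 2-fold in 51 members, or 5.97%, where 1.28% of all regions had this. The share was 5.56% in the 2160 regions with a basal step alone, near that of the members, and 3.04% in the 1844. The order held at all 3 stages in 485 members.

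**Figure D3:**
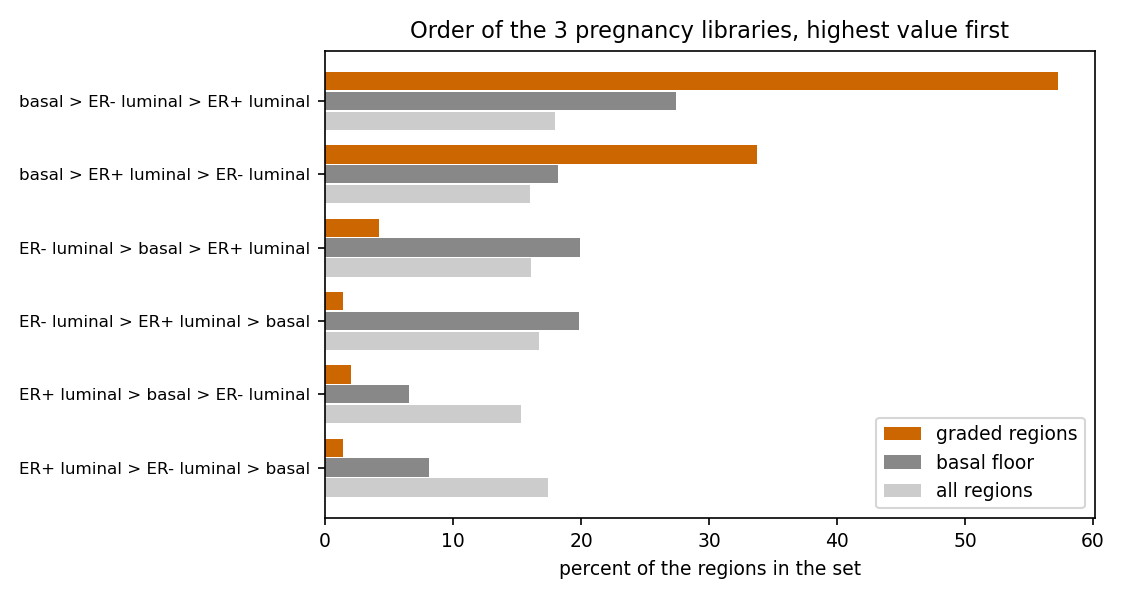
Percent of regions with each order of the 3 pregnancy libraries, highest value first, in the 854 graded regions (orange), the 34127 regions with both earlier basal values at or above 30 (dark grey) and all 124860 regions (light grey). Graded regions are in the first order in 57.3% and in the second, with ER+ above ER- luminal cells, in 33.7%. All regions are spread over the 6 orders, with 15.3% to 17.9% in each.

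Set against the earlier stages, the pregnancy values of the graded regions differed most in ER+ luminal cells. The median log2 difference of pregnancy minus the mean of puberty and adult was -0.30 in basal cells, 0.01 in ER- luminal ones and 1.27 in ER+ luminal ones. Over all regions these medians were 0.04, 0.07 and -0.03, and over regions meeting the floor on basal values -0.47, -0.17 and -0.13. The ER+ luminal pregnancy value was above both earlier ER+ luminal values in 741 graded regions, or 86.8%, and below both in 36, while over all regions 38.9% were above and 41.9% below. In basal cells 186 members lay above and 470 below both earlier values, against 37.9% above and 36.9% below over all regions. For ER- luminal cells the counts were 301 above and 315 below, against 39.9% and 34.3%. In the 2160 regions with a basal step alone, the ER+ luminal median was 5.26 at puberty, 5.99 in adults and 16.95 in pregnancy. The 1844 with a luminal step alone had 9.465, 6.84 and 27.1. In 986 regions graded the other way it was lower in pregnancy, with 90.7, 88.1 and 33.9. A higher ER+ luminal level in pregnancy was thus not particular to the graded regions. The members were chosen for low ER+ luminal and high basal values at the earlier stages, so these counts and the calls that follow are a description.

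Limma called 213 members higher and 1 lower in pregnancy in ER+ luminal cells, where 7.18% of all regions were higher and 6.96% lower. Among ER- luminal libraries it called 0 higher and 3 lower (0.0264% and 0.251% of all regions), with 0 calls by edgeR (0.0521%) and 1 lower by DESeq2 (0.115%). For basal cells limma called 0 members, where 0.0857% of all regions were called higher and 0.883% lower, and 66 had an unadjusted p under 0.05, or 7.73% of members against 15.3% of all regions. On reads, edgeR called 0 in basal cells (0.0216% of all regions) and DESeq2 2 lower (1.61%). In ER+ luminal cells edgeR called 154 members higher (5.53% of all regions) and DESeq2 62 (1.82%). The 214 ER+ luminal calls of limma became 136 or 41 when the puberty library of ER- or ER+ luminal cells was left out, 133 or 85 when their adult library was, and 0 at equal depth or without a trend in the variance. Equal depth and the fit without a trend also called 0 of all regions.

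A library of the other early stage can be held out in the same way. Applying the same window and floor to the puberty libraries alone gave 915 regions, of which 381 were members (44.6% of the members and 41.6% of the 915). In adults, which then played no part in the choice, their median steps were 1.31 from basal to ER- luminal and 1.56 from ER- to ER+ luminal cells, and 89.7% kept the order. In pregnancy their steps were 1.01 and 0.29, and 56.6% kept the order. Chosen on the adult libraries alone, 1154 regions had puberty steps of 1.39 and 1.14 with 83.4% in order, and pregnancy steps of 1.06 and 0.23 with 52.9% in order. In both sets the ER- to ER+ luminal step was thus kept in the other early stage and was small in pregnancy. Each of these values compares single libraries and has no test.

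In ER+ luminal cells the pregnancy level of the graded regions was nearer to that of ER- luminal cells of the earlier stages than to their own. By absolute log2 difference, the ER+ luminal pregnancy value was nearest the earlier ER- luminal mean in 583 members (68.3%), nearest the earlier ER+ luminal mean in 194 (22.7%) and nearest the earlier basal mean in 77 (9.02%). Over all regions the shares were 32.9%, 36.4% and 30.7%. The ER- luminal pregnancy value was nearest its own earlier mean in 583 members (68.3%), against 46.0% of all regions, and the basal one in 633 (74.1%), against 45.9%. In a window this narrow the middle type is near many values, and the shares over all regions do not carry that geometry.

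Whether the step between the luminal types differed between pregnancy and the earlier stages was also tested region by region in the same limma fit. It called 0 members with a smaller or larger ER- to ER+ luminal step (0.0016% of all regions in either direction), while 235 had an unadjusted p under 0.05, or 27.5% of members against 14.4% of all regions. EdgeR and DESeq2 called 0 (0.0016% and 0.0136% of all regions), with 217 and 103 at an unadjusted p under 0.05, where 11.7% and 5.54% of all regions passed. For the basal to ER- luminal step 0 members were called by limma (0.00481% of all regions), edgeR (0.0024%) and DESeq2 (0.00481%). At an unadjusted p under 0.05 there were 28, 20 and 7, where 7.78%, 4.49% and 1.95% of all regions passed. The earlier steps chose the members, so these counts are a description.

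Among themselves, the graded regions differed in pregnancy by their level and by how steep their first step had been. Split into 3 bins by the mean over all 9 libraries, 47.4% of the lowest 285 regions kept the full order, 55.3% of the middle 284 and 69.1% of the highest 285. The median ER- to ER+ luminal step in pregnancy was 0.12, 0.21 and 0.34 in these bins, and the basal to ER- luminal step 1.12, 1.16 and 1.09. The lowest bin had median pregnancy values of 35.2, 15.2 and 13.6 in basal, ER- and ER+ luminal cells, which are few reads, and the part of counting noise in the lower share was not tested. Binned in the same way by the earlier basal to ER- luminal step, the steepest regions had a pregnancy step of 1.42, the middle ones 1.23 and the shallowest 0.79. In these bins the full order was kept by 50.2%, 57.4% and 64.2%, and the median ER- to ER+ luminal step in pregnancy was 0.10, 0.19 and 0.44, so the other step and the order ran the opposite way. Both steps hold the ER- luminal value, whose pregnancy medians were 18.2, 25.8 and 33.4 in these bins, so they are not independent. For the ER- to ER+ luminal step the steepest, middle and shallowest bins had pregnancy steps of 0.29, 0.22 and 0.23. Across the 854 members, which share libraries and are not replicates, the earlier and pregnancy steps had a Pearson r of 0.282 for basal to ER- luminal and 0.100 for ER- to ER+ luminal cells, and levels had an r of 0.749 for basal, 0.701 for ER- and 0.622 for ER+ luminal cells.

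The members that kept the order in pregnancy had higher adult medians in each cell type than those in which the luminal types changed places. The 489 in full order had adult medians of 80.5, 31.2 and 9.41 in basal, ER- and ER+ luminal cells, and the 288 had 67.9, 23.4 and 6.84. In pregnancy the 489 had 68.2, 31.9 and 20.3, and the 288 had 55.0, 16.7 and 25.4. The groups were split on the pregnancy values, so their pregnancy levels are a description. In both, the ER+ luminal median was over 2-fold that in adults. The 41 members with both pregnancy steps inside the window of the choice had pregnancy medians of 79.2, 28.8 and 11.9, nearer to their adult medians of 67.9, 23.8 and 6.84. These 41 were picked by the same window on the puberty and adult means and on the pregnancy values, so this nearness follows from how they were picked.

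Other sets of regions chosen by like rules on the puberty and adult libraries, with the same floor on the highest cell type, were set beside the graded ones. Each has its own selection, and differences between sets were not tested. In 986 regions graded the other way, the median steps in pregnancy were -0.62 from basal to ER- luminal and -0.46 from ER- to ER+ luminal cells, against -1.08 and -1.51 in adults. In 2160 regions at least 4-fold higher in basal than ER- luminal cells with the luminal types within 2-fold, the first step was 1.82 in pregnancy and 2.87 in adults. In 1844 regions at least 4-fold higher in ER- than ER+ luminal cells with basal and ER- luminal cells within 2-fold, the second step was 1.03 in pregnancy and 3.03 in adults. The median steps that define the 986, the 2160 and the 1844 regions, like both steps of the graded regions, were thus smaller in pregnancy than in adults. The first step of the graded regions, 1.12 in pregnancy and 1.39 in adults, stood nearer to its adult value than that of the 2160 regions did. From end to end, basal cells exceeded ER+ luminal cells by at least 2-fold in pregnancy in 75.2% of the 2160 and 67.6% of the 1844 regions. The share was 68.5% in the graded regions.

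**Figure D4:**
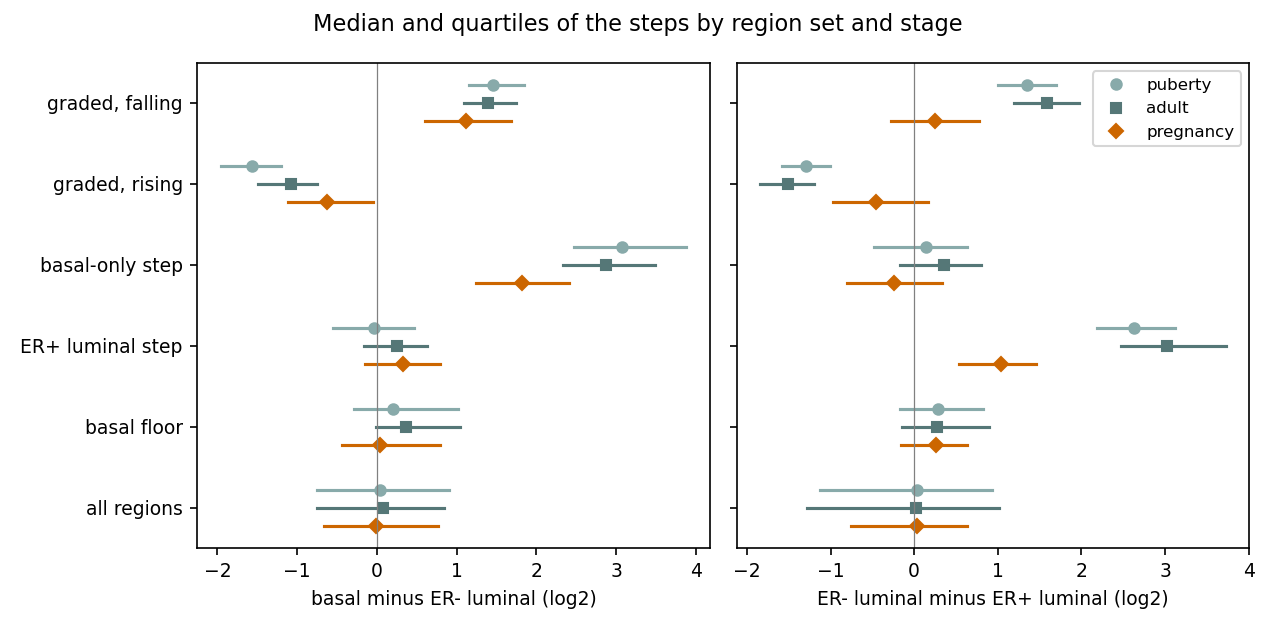
Median (symbols) and quartiles (lines) over regions of the log2 difference between basal and ER- luminal cells (left) and between ER- and ER+ luminal cells (right) at puberty, in adults and in pregnancy, 1 library per cell type and stage. Sets are the 854 graded regions falling from basal to ER+ luminal cells, 986 rising, 2160 with a basal-only step, 1844 with an ER+ luminal step, 34127 meeting the floor on basal values and all 124860. In the graded regions the pregnancy median is 1.12 on the left, below 1.46 and 1.39 at the earlier stages, and 0.24 on the right, further below 1.35 and 1.59.

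Between puberty and adulthood no graded region was called, but almost none of all regions was called either, so this says little about the members. The choice used the mean of these stages and not their difference, apart from the floor on the basal values. In a limma fit of the 9 libraries with additive terms for cell type and for stage, 0 members passed for adult minus puberty, where 0.0016% of all regions passed in either direction. At an unadjusted p under 0.05 there were 58 members, or 6.79%, and 4.63% of all regions. EdgeR and DESeq2 called 0 members too (0.0016% and 0.00801% of all regions), with 39 and 46 at an unadjusted p under 0.05, where 5.2% and 3.93% of all regions passed. The median log2 difference of adult minus puberty over the members was 0.21 for basal cells, 0.29 for ER- and 0.07 for ER+ luminal ones. Basal values were higher in adults in 582 members (68.1%), ER- luminal values in 566 (66.3%) and ER+ luminal values in 454 (53.2%), against 50.8%, 50.5% and 51.5% of all regions.

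The same additive model, in which the cell types share 1 stage effect, called few members in pregnancy. Limma called 0 higher and 1 lower in pregnancy than in adults (0.196% of all regions higher and 1.67% lower), and 30 higher and 1 lower in pregnancy than at puberty (1.83% and 3.5%). Against adults edgeR called 0 members (0.803% of all regions) and DESeq2 7 higher and 3 lower (2.56% in either direction), and against puberty edgeR called 18 (3.81%) and DESeq2 39 (5.3%). The 31 members called against puberty became 0 or 1 when the puberty library of ER- or ER+ luminal cells was left out, 17 when that of adult basal cells was, and 60, 7 or 13 when a pregnancy library of basal, ER- or ER+ luminal cells was. Without the ER+ luminal pregnancy library the calls were 4 higher and 9 lower, and the members' median difference from puberty was -0.06 in place of 0.40, so the higher calls rested on that library. Against adults, leaving it out gave 0 higher and 7 lower calls, with a median difference of -0.25 in place of 0.22. The adult and puberty values helped to choose the members, so these counts are a description.

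Single members show the range in pregnancy, and 4 are named by the rule set for this. The members merged40314 and merged2 had the largest differences between basal and ER+ luminal cells among those called. They were picked on these same pregnancy values, so their intervals and p-values are a description. Both rest on few ER+ luminal reads, where limma can make false calls. Region merged40314 had values of 38.8, 69.5 and 37.4 in basal cells at puberty, in adults and in pregnancy, 9.32, 16.3 and 7.58 in ER- luminal cells and 2.63, 3.42 and 0 in ER+ luminal cells. The gradient was present at each stage. Its 17 basal and 0 ER+ luminal reads in pregnancy gave a ratio of basal to ER+ luminal signal whose exact 95% counting interval began at 5.35 (limma adjusted p = 0.00635). Region merged2 had 30.1, 45.0 and 37.4 in basal, 13.6, 10.4 and 9.10 in ER- luminal and 0.53, 5.99 and 1.70 in ER+ luminal cells at the 3 stages. Its pregnancy ratio of basal to ER+ luminal signal was 22.1 with an exact 95% counting interval of 3.46 to 922, from 17 reads and 1 read (log2 difference 3.83, SE 0.99, limma adjusted p = 0.0424).

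Among the members with the lowest differences, the basal library was below both luminal ones in pregnancy, without passing the test. Region merged15386 had 34.0, 42.6 and 4.40 in basal, 11.5, 20.1 and 18.2 in ER- luminal and 2.1, 5.13 and 16.95 in ER+ luminal cells at puberty, in adults and in pregnancy. Its pregnancy values rest on 2, 12 and 10 reads (basal minus ER+ luminal log2 difference -1.73, SE 0.86, limma adjusted p = 0.309). Region merged121826 had 79.2, 71.8 and 21.99 in basal, 22.9, 31.2 and 30.3 in ER- luminal and 7.36, 17.1 and 52.6 in ER+ luminal cells. Its order in pregnancy was ER+ luminal, ER- luminal, basal, with 10 basal and 31 ER+ luminal reads (log2 difference -1.22, SE 0.66, limma adjusted p = 0.366).

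**Figure D5:**
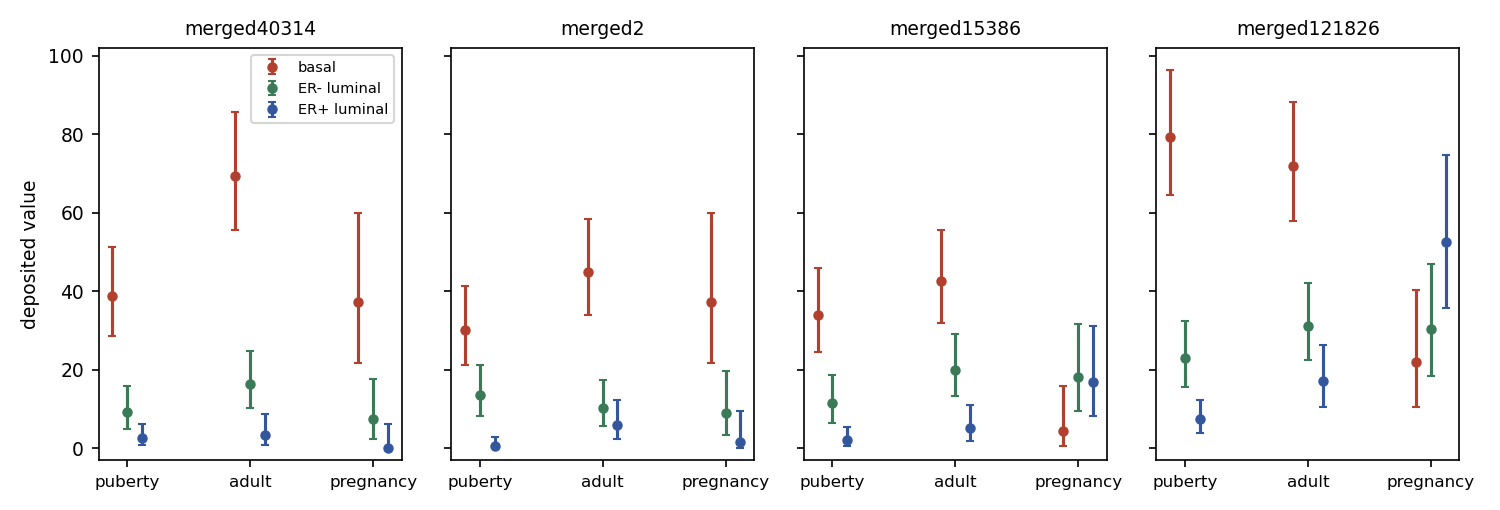
Deposited values of 4 graded regions at puberty, in adults and in pregnancy in basal (red), ER- luminal (green) and ER+ luminal cells (blue), 1 library per point, with exact 95% Poisson counting intervals from the recovered reads. In pregnancy merged40314 and merged2 have 37.4 in basal cells and 0 and 1.70 in ER+ luminal cells, while merged121826 has 21.99 in basal and 52.6 in ER+ luminal cells.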

How the data were processed

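ATAC-seq of 9 libraries was read from 1 table of signal values per merged region that the authors deposited. Genome build GRCm38 (mm10), MACS2 2.1.0.20151222, Bowtie2 2.2.6, Picard and SAMtools are named, per the submitters' processing notes. The sources used here give neither how peaks were merged nor whether reads were shifted for the Tn5 cut. Total RNA is the molecule per the labels, whose protocol nevertheless describes Tn5 tagging of nuclei. In column names, p and m after the receptor were read as plus and minus. Within 0.02 reads, 100% of the deposited signal values were whole multiples of 1 step per library (0.526 to 2.199), read as 1 read. A count of 0 allows up to 3 reads, worth 1.58 to 6.60 units. These limits and the intervals hold counting error alone, because PCR duplicates may remain.

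Values were analysed as log2(value + 1), which understates changes of low regions, with limma 3.58.1 in R 4.3.3 over all 124860 regions with no filter, a variance trend and Benjamini-Hochberg adjustment at 0.05; 808 members reached the median of the region means. The model of cell type by period (puberty and adult together, pregnancy alone) leaves 3 residual degrees of freedom and the additive model of cell type and stage 4, so p-values measure the spread between these libraries and not between animals. On simulated reads limma made many false calls in the first model, some of them among the members and most in regions with low values, while edgeR 4.0.16 on recovered reads made few. Limma's pregnancy counts can therefore hold false calls, and edgeR and DESeq2 1.42.0 counts are given beside them. For equal depth, reads were thinned so that 1 read was worth the same in each library. Members, like sets and tests were chosen with earlier results of these data known. Named regions were the 2 called members with the largest and the 2 members with the lowest pregnancy difference between basal and ER+ luminal cells. Alternatives are listed at the end.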

Additional observations from a re-analysis of the deposited data

Results flagged for a closer look

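Over the 854 graded regions, the median stage differences of some cell types had opposite signs; each median compares single libraries, and the difference between the medians was not tested. For pregnancy minus adult the median was -0.42 in basal and 1.24 in ER+ luminal cells, a difference of -1.66, and -0.13 in ER- luminal cells, a difference of -1.37 from ER+ luminal cells. For pregnancy minus puberty it was -0.18 in basal and 1.26 in ER+ luminal cells, a difference of -1.44. Against puberty, basal cells at -0.18 and ER- luminal cells at 0.18 differed by -0.36. The members were chosen on the adult and puberty values, and the pregnancy libraries were shallower and of narrower range.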

How the results depend on the processing

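Median-of-ratios size factors came out as 1.02 for all 9 libraries, so this setting scaled every library alike and says nothing about scaling. For basal against ER- luminal cells in pregnancy the 14 calls became 5 and 42 with pseudocounts of 0.25 and 4, 101 after quantile normalization, 0 at equal depth or without a variance trend, 2 in edgeR and 8 in DESeq2, and 0 to 0 without 1 puberty or adult library. Of all 124860 regions, 2427 were called higher after quantile normalization and 0 at equal depth or without a trend. For basal against ER+ luminal cells the 95 became 44 with a pseudocount of 0.25, 277 after quantile normalization, 0 at equal depth or without a trend, 11 in edgeR, 34 in DESeq2 and 3 to 25 without 1 library. Here 6220 of all regions were called higher after quantile normalization and 0 at equal depth or without a trend. Between the luminal types quantile normalization gave 17 calls in place of 0 (1445 higher and 2020 lower over all regions), and the other settings gave 0. For pregnancy minus adult the 1 call, which was lower, became 0 with a pseudocount of 0.25, 3 with 4 (2 higher), 2 among regions at or above the median mean (both lower), 7 after quantile normalization (all higher), 0 at equal depth, without a trend or in edgeR, 10 in DESeq2 (7 higher) and 0 to 7 without 1 library, the 7 being lower, so the direction turned between settings. For pregnancy minus puberty the 31 became 16 at equal depth, 0 without a trend, 18 in edgeR and 0 to 60 without 1 library; leaving out a pregnancy library was chosen after seeing the data. No setting called a member for adult minus puberty, but almost none of all regions was called either.

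The median basal to ER- luminal step in pregnancy, 1.118, was 1.040 with a pseudocount of 4, 1.172 after quantile normalization, 1.029 with a window wider by 0.25 at each end (1948 regions), and 1.013 and 1.058 with the choice made on puberty or adult libraries alone. The ER- to ER+ luminal step lay between 0.151 and 0.294 in all settings. The share in full order, 57.3%, was 51.2% at equal depth, 63.4% with a basal floor of 60 (382 regions), 48.1% with 10 (1917 regions) and 52.9% with the choice made on adult libraries. The cause of these moves was not tested. Pregnancy depth, with a median of 13 to 27 reads a region, limits calls on single members.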

Other observations

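Regions carry running numbers, and 14 of the 854 graded regions (1.64%) were followed by another graded region at the next number, where 0.684% of all regions are graded. Across all regions sorted by number, the earlier basal minus ER+ luminal difference had a Pearson r of 0.245 between consecutive regions. The table does not say what the numbers order, and no test was made.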
